A study of Mus musculus with 10 samples.

Results

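The collagen genes of the mouse jejunum are described here. They were chosen by name alone, as every gene whose symbol is Col, a type number, the letter a and a chain number, and 44 of the 22180 genes measured met that rule. They cover 27 collagen types and fall into 11 fibrillar genes, 8 basement membrane genes (the 6 type IV chains with Col15a1 and Col18a1) and 25 genes of other types. The study compared 5 knockout arrays, numbered 1 to 5, with 5 control arrays, numbered 6 to 10. Each array was hybridised with RNA from 1 jejunum sample. The mice were female and aged 10 to 12 weeks, and nothing in the labels ties each sample to its own mouse. Knockouts were Pcyt1aLoxP/LoxP;VilCreERT2 and controls Pcyt1aLoxP/LoxP. Both groups carried the LoxP alleles, received tamoxifen (5 days) and a high fat diet (4 days) and were fasted overnight before sampling, so the groups differed in the Cre transgene and the deletion it makes. The source label of the controls also speaks of lost phosphatidylcholine synthesis, against their titles and genotype, and the series text speaks of re-feeding where the sample labels give the fasted state.

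Pcyt1a encodes the main rate-setting enzyme of the CDP-choline route to phosphatidylcholine, and the villin promoter drives the Cre in gut epithelium. Collagens are proteins of 3 chains wound into a triple helix and secreted into the extracellular matrix. Most collagen of the gut wall is made by cells under the epithelium, such as fibroblasts, smooth muscle cells, pericytes and endothelium, in which villin is not active. Fibrillar types I, III and V form the tensile fibres of the lamina propria and submucosa. Type IV forms the sheet of the basement membrane on which epithelium and vessels rest, and types XV and XVIII lie in or beside that sheet. Type VI forms beaded filaments between fibres and basement membrane, and types such as XII and XIV sit on the surface of fibres. Each sample was a 3 cm piece of opened jejunum with several cell types, so fewer cells of a type and less RNA per cell cannot be told apart in any value given here.

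The arrays were alike in overall level, with a median log2 intensity over all genes of 5.77 to 5.89. Pcyt1a was at 7.46 ± 0.25 on knockout and 9.39 ± 0.17 on control arrays (SD, n = 5 per group), and its groups differed by -1.93 on the log2 scale (limma adjusted p = 9.577e-05, SE 0.13). Enterocyte markers bore out the tissue label as to small intestine, but they do not tell jejunum from its other parts. Their 12 measured members had a mean log2 intensity of 12.64 to 12.86 on knockout arrays and 12.73 to 12.90 on controls. The arrays differed in smooth muscle markers, and the mean of 12 smooth muscle markers reached 9.81 (control 7), 8.61 (control 9) and 7.95 (knockout 1), against 6.26 to 6.89 on the other 7 arrays.

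No collagen gene passed the threshold. At an adjusted p under 0.05 over all genes (limma), 0 of 44 were called. In the whole comparison 6 genes were called, 0.0271% of the genes tested. By direction, the calls made up 0.00451% (higher in knockouts) and 0.0225% (lower) of these genes. The smallest adjusted p of a collagen gene was 0.182. At an unadjusted limma p under 0.05, 7 of 44 collagen genes were higher in knockouts (15.9%, against 8.29% of all genes) and 2 were lower (4.55%, against 5.56% of all genes). The 7 were Col1a1, Col1a2 and Col3a1 of the fibrillar class, Col18a1 of the basement membrane class, and Col6a3, Col6a5 and Col14a1 of the other types, and the 2 were Col9a1 and Col11a2. Knockout and control arrays overlapped for all 44 genes, which is near the background, as they did not overlap for only 2.6% of all genes. The median log2 fold change was 0.01 over the 44 collagen genes and -0.01 over all genes, with a range among the collagens from -0.29 to 0.69. Signs were mixed, with 25 positive and 19 negative values.

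**Figure D1:**
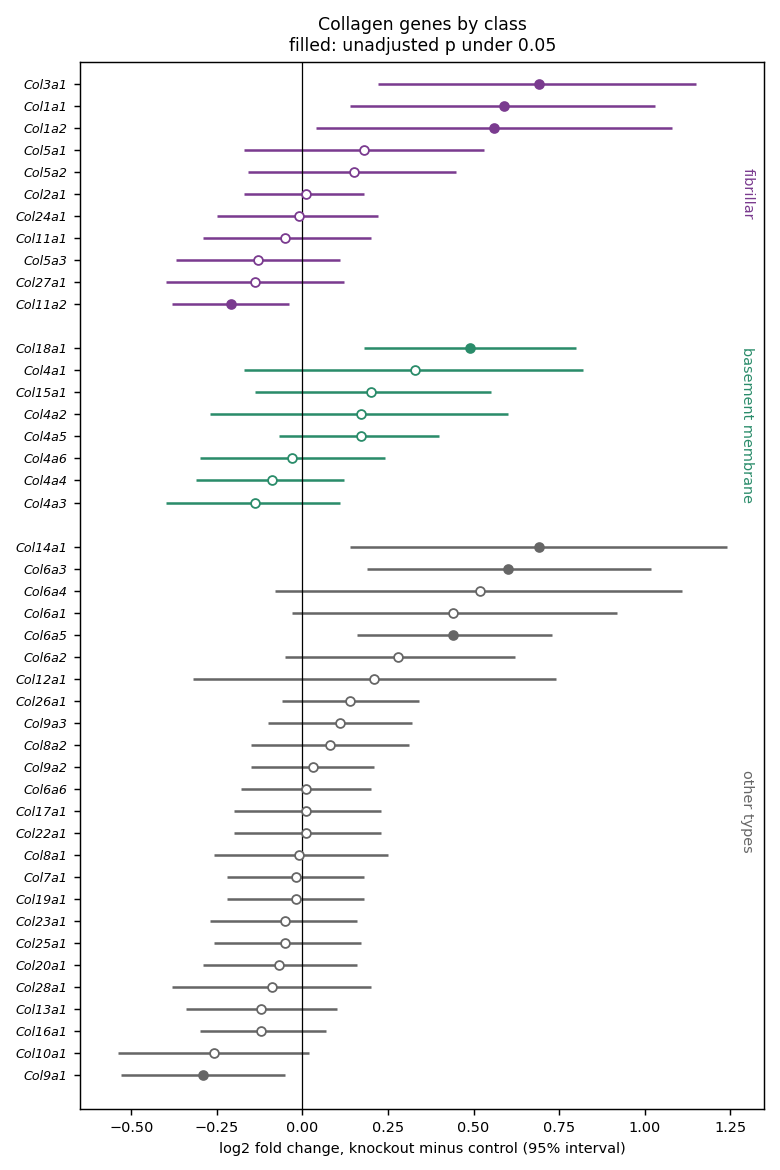
Log2 fold change of each collagen gene, knockout minus control, with its 95% interval from limma, grouped by class and ordered by size within a class. Filled points mark the 9 genes with an unadjusted p under 0.05, and the 7 of these on the right lie between 0.44 and 0.69.

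In the fibrillar class the chains of types I and III had higher means in knockouts, and the rest had values closer to 0 or below it. Col3a1 encodes the single chain of type III collagen, which makes up fine fibres with type I in distensible organs. Its log2 intensity on knockout arrays 1 to 5 was 8.37, 8.05, 7.88, 7.95 and 7.50, and on control arrays 6 to 10 it was 7.12, 8.07, 6.99, 7.00 and 7.13. Every knockout array stood above 4 of the 5 controls, and control 7 stood above all knockouts but knockout 1. The difference was 0.69 on the log2 scale (limma adjusted p = 0.196, SE 0.21, 95% interval 0.22 to 1.15), a fold of 1.61.

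Col1a1 and Col1a2 encode the chains of type I collagen, the main fibre of connective tissue, which joins 2 chains of the first with 1 of the second. Col1a1 read 8.02, 7.59, 7.42, 7.33 and 7.02 on knockouts 1 to 5 and 6.98, 7.49, 6.58, 6.59 and 6.81 on controls 6 to 10. Col1a2 read 8.07, 7.57, 7.36, 7.25 and 6.94 on knockouts and 6.74, 7.68, 6.80, 6.65 and 6.53 on controls. The 5 knockout arrays stood in the same order for both chains, with knockout 1 highest and knockout 5 lowest, and control 7 was the highest control for both. The log2 fold changes were 0.59 for Col1a1 (SE 0.20, limma adjusted p = 0.230) and 0.56 for Col1a2 (SE 0.24, limma adjusted p = 0.324). A second, dimmer probe set of Col1a2 gave a difference of 0.35, from 4.97 ± 0.38 for knockouts and 4.62 ± 0.42 for controls (SD, n = 5 per group).

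The chains of type V, a minor fibre component that starts fibre assembly, gave smaller values. Col5a1 was at 0.18 (95% interval -0.17 to 0.53), Col5a2 at 0.15 (-0.16 to 0.45) and Col5a3 at -0.13 (-0.37 to 0.11) on the log2 scale. A second probe set of Col5a1 gave -0.02, so its probe sets did not share a sign. For Col5a2, control 7 at 6.47 was the highest of the 10 arrays, and the other controls lay between 5.74 and 5.83, below all knockouts, which lay between 5.95 and 6.28. Col11a2, a chain of the fibrillar collagen best known from cartilage, was lower in knockouts, at 5.19, 5.33, 5.17, 5.26 and 5.24 against 5.47, 5.47, 5.44, 5.29 and 5.55. Only knockout 2 reached above the lowest control, control 9, and the log2 fold change was -0.21 (limma adjusted p = 0.271, SE 0.08). The remaining fibrillar genes Col2a1, Col11a1, Col24a1 and Col27a1 had log2 fold changes between -0.14 and 0.01.

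Among the basement membrane genes, Col18a1 gave the smallest unadjusted p of all 44. Type XVIII collagen is a heparan sulphate proteoglycan of epithelial and vascular basement membranes, and its C-terminal fragment is known as endostatin. Knockout arrays read 6.36, 6.52, 6.13, 6.19 and 5.98, and controls 5.95, 5.99, 5.78, 5.31 and 5.68. All knockouts except knockout 5 lay above the highest control. The log2 fold change was 0.49 (95% interval 0.18 to 0.80, unadjusted p = 0.00463, limma adjusted p = 0.182). Col15a1, the other gene of this structural pair, was at 0.20 (SE 0.16), and control 9 at 5.26 stood apart below the other controls, which lay between 5.95 and 6.10.

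The type IV chains gave no unadjusted p under 0.05. Col4a1 and Col4a2 encode the chains of the type IV network found in nearly all basement membranes. Col4a1 read 7.37, 7.21, 6.76, 7.14 and 6.53 in knockouts and 6.89, 7.41, 6.20, 6.40 and 6.47 in controls, and Col4a2 read 6.81, 6.86, 6.43, 6.82 and 6.29 against 6.65, 7.14, 6.35, 6.22 and 6.02. For both chains control 7 was the highest of all 10 arrays and knockout 5 the lowest knockout. The log2 fold change was 0.33 for Col4a1 (95% interval -0.17 to 0.82) and 0.17 for Col4a2 (-0.27 to 0.60), and both intervals reach past 0.5, so changes of that size were not excluded for either chain. Col4a5 was at 0.17 (-0.07 to 0.40), and Col4a3, Col4a4 and Col4a6 at -0.14, -0.09 and -0.03. These last 4 chains build the more restricted type IV networks, and the whole interval of each lay between -0.40 and 0.40. The median over the 8 basement membrane genes was 0.17, and 0.07 over the 6 type IV chains alone.

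Among the other types, all 6 chains of type VI had positive log2 fold changes, with a median of 0.44, against 0.01 over the 25 genes of other types. Col6a3 encodes the long alpha 3 chain of the common type VI filament. It read 7.54, 7.32, 6.97, 6.95 and 6.70 in knockouts and 6.58, 7.04, 6.31, 6.09 and 6.45 in controls, so that each knockout exceeded 4 of the 5 controls and knockouts 1 and 2 also exceeded control 7. Its log2 fold change was 0.60 (limma adjusted p = 0.201, SE 0.19). Its partners Col6a1 and Col6a2 were at 0.44 (SE 0.22) and 0.28 (SE 0.15), neither under an unadjusted p of 0.05. A second probe set of Col6a1 gave 0.34.

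Col6a5 and Col6a4 encode chains that can take the place of the alpha 3 chain. Col6a5 was at 5.75, 5.97, 5.50, 5.71 and 5.57 in knockouts and 5.52, 5.47, 5.26, 4.94 and 5.09 in controls. Of the knockouts only knockout 3 lay below the highest control, control 6, and the log2 fold change was 0.44 (limma adjusted p = 0.182, SE 0.13). Col6a4 was at 0.52 (SE 0.27) with the widest spread of any collagen gene, a pooled within-group SD of 0.51, and its controls ran from 5.28 (control 9) to 7.00 (control 6). Col6a6, the last of these chains, was at 0.01 (95% interval -0.18 to 0.20).

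Col14a1 encodes a collagen that coats fibre surfaces. It read 6.63, 7.40, 6.25, 6.68 and 6.19 in knockouts and 5.96, 6.55, 6.20, 5.42 and 5.58 in controls. Knockout 2 was the highest array, and the log2 fold change was 0.69 (limma adjusted p = 0.256, SE 0.25). Col12a1, its relative with the same location, was at 0.21 (SE 0.24), with control 7 at 6.74 above all knockouts. Col9a1, a fibre-surface collagen best known from cartilage, was the other gene lower at an unadjusted p under 0.05. It read 5.14, 5.18, 5.18, 5.31 and 5.36 in knockouts and 5.84, 5.64, 5.44, 5.42 and 5.29 in controls, where only control 10 fell within the range of the knockouts, and its log2 fold change was -0.29 (limma adjusted p = 0.262, SE 0.11). Its partner chains Col9a2 and Col9a3 were at 0.03 and 0.11.

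Collagens that anchor epithelia had values near 0. Col7a1, which makes the anchoring fibrils beneath stratified epithelia, was at -0.02 (95% interval -0.22 to 0.18), and Col17a1, a transmembrane collagen of hemidesmosomes, at 0.01 (-0.20 to 0.23). The other transmembrane genes Col13a1, Col23a1 and Col25a1 lay between -0.12 and -0.05. Col10a1, the short-chain collagen of growth cartilage, was at -0.26 (SE 0.13) with a mean log2 intensity of 4.84. The remaining genes, Col8a1, Col8a2, Col16a1, Col19a1, Col20a1, Col22a1, Col26a1 and Col28a1, lay between -0.12 (Col16a1) and 0.14 (Col26a1). No filter on dim genes was applied, so all 44 were tested. A mean log2 intensity of at least 5 was reached by 38 of them and of at least 6 by 19, and dim probe sets may report background more than transcript.

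**Figure D2:**
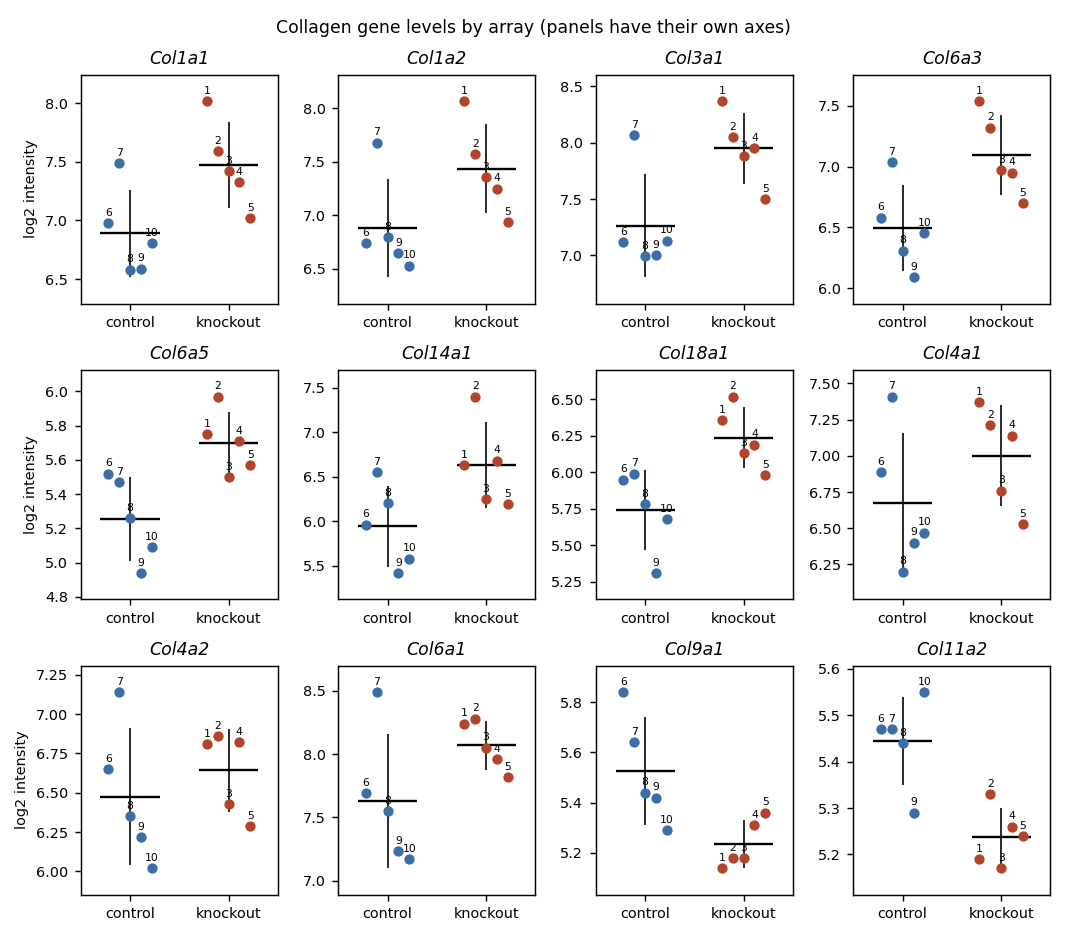
Log2 intensity of 12 collagen genes on each array, with the array number above its point, a horizontal line at the group mean and a vertical line of 1 SD on each side. For Col3a1, control 7 at 8.07 lies among the knockouts while the other controls lie between 6.99 and 7.13.

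The collagen genes differed in how much they varied within a group. A pooled within-group SD of at least 0.25 was found for 13 of 44 collagen genes (29.5%) and for 28.5% of all genes. These 13 were Col1a1, Col1a2, Col3a1 and Col5a1, Col4a1, Col4a2 and Col15a1, and Col6a1, Col6a2, Col6a3, Col6a4, Col12a1 and Col14a1. In the 7 genes with higher means at an unadjusted p under 0.05, knockout 1 was the highest array for 4 and knockout 2 for 3, knockout 5 was the lowest knockout for 6, and control 7 was the highest control for 6. Averaged over these 7 genes and set against the mean of the 10 arrays, the level was 0.61, 0.56, 0.14, 0.22 and -0.09 on knockouts 1 to 5 and -0.24, 0.26, -0.37, -0.64 and -0.46 on controls 6 to 10. Those values describe the choice of the genes and carry no test. Over all 44 genes the same quantity ran from -0.08 to 0.21 in knockouts and from -0.22 to 0.19 in controls.

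**Figure D3:**
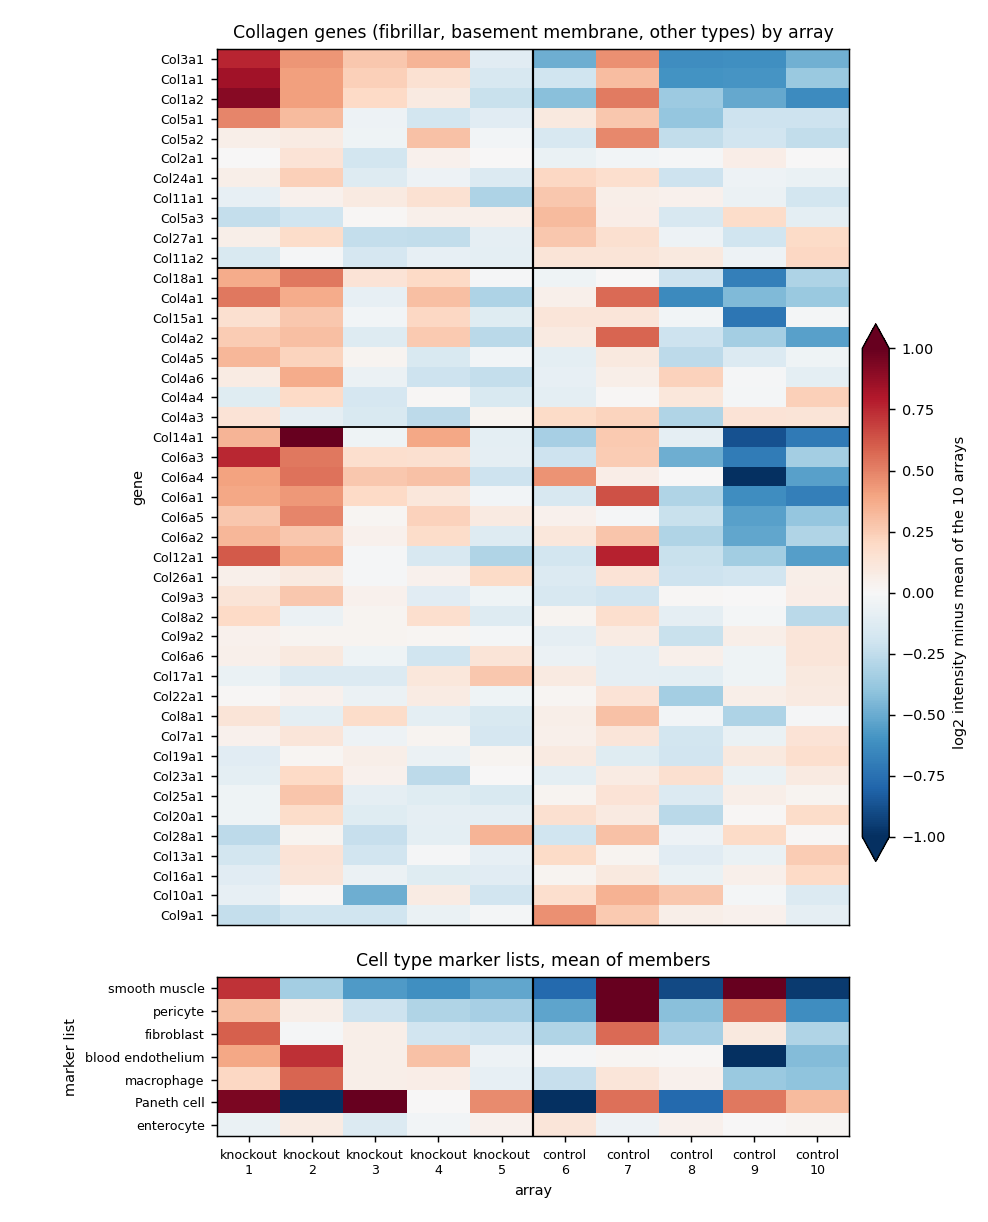
Log2 intensity of each collagen gene on each array minus that gene's mean over the 10 arrays (upper block, classes divided by lines), and the same for the mean of 7 cell type marker lists (lower block), with colours saturating at 1 and -1. Control 7 is high for Col3a1, Col4a1, Col6a1 and Col12a1, and it is also the array with the highest smooth muscle mean, 2.58 above the average. Control 9 has the next highest smooth muscle mean (1.38 above) and is low for the same genes, at -0.61, -0.44, -0.62 and -0.35.

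Markers of the cell types that make collagen, and those of macrophages, moved between arrays as well. Of 9 measured markers of blood endothelium, 6 were higher in knockouts at an unadjusted limma p under 0.05, 0 were lower and 0 were called, where 8.29% of all genes were higher at that level. Their mean log2 intensity was 6.37 to 7.15 on knockouts and 5.41 to 6.44 on controls, the dimmest being Esam at 5.43 and the brightest Plvap at 7.50. Of 12 fibroblast markers, 3 were higher at that level (Pdgfra, Cd34 and Gli1) and 0 lower, but the list median was 0.02. Their mean was 5.60 to 6.41 in knockouts and 5.47 to 6.38 in controls (dimmest Twist2 at 4.25, brightest Dcn at 7.96). Of 6 pericyte markers 2 were higher (Pdgfrb at 0.47 and Notch3 at 0.21), but the list median was -0.25. Rgs5, Kcnj8 and Abcc9 were at -0.63 (SE 0.90), -0.51 (SE 0.47) and -0.71 (SE 0.66), each highest on control 7 and next on control 9. Of 12 smooth muscle markers 0 were higher or lower at that level, and the median log2 fold change was -0.62. That value reflects controls 7 and 9, where the smooth muscle mean was 9.81 and 8.61. It was 6.26 to 6.44 on the other controls and 6.61 to 7.95 on knockouts. Of 9 macrophage markers 4 were higher and 0 lower, with a mean of 6.68 to 7.34 in knockouts and 6.37 to 6.88 in controls.

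The collagen values moved to different degrees when these levels entered the fit. With the endothelial mean of each array as a covariate, a fit added after the data were seen, 0 collagen genes were higher and 4 were lower at an unadjusted p under 0.05. In that fit 15.7% of all genes reached this p in either direction, against 13.9% without a covariate. Col14a1 then stood at 0.07, Col18a1 at 0.15, Col6a3 at 0.24, Col1a1 at 0.29 and Col3a1 at 0.40 on the log2 scale. The sign turned for Col4a1 (-0.02), Col4a2 (-0.20), Col5a1 (-0.02), Col15a1 (-0.17), Col6a2 (-0.03) and Col12a1 (-0.17). The endothelial mean itself was above the highest control on 4 of the 5 knockout arrays, so this fit also takes out group differences that go along with it, and its part in the collagen values was not tested further. With the fibroblast mean as a covariate, also added after the data were seen, the same 7 genes were higher and the same 2 lower. With the smooth muscle mean the 7 were joined by Col4a1 and Col6a1, with Col3a1 at 0.81 (limma adjusted p = 0.0818). Of all genes, 14.0% reached that unadjusted p in the fibroblast fit and 15.7% in the smooth muscle fit, in either direction.

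Single arrays moved the count as well. Without control 7, 12 collagen genes were higher at an unadjusted p under 0.05, Col4a1, Col5a2, Col6a1, Col6a2 and Col12a1 joining the 7, and Col3a1 stood at 0.89. Without control 9 there were 5 and without controls 8 and 9, the arrays highest in B cell markers, there were 2, namely Col18a1 and Col6a5. Without knockout 1, control 7 and control 9, where the smooth muscle mean was highest, 9 were higher and 1 lower. Without knockout 3 the number of lower genes was 1. In each of these fits 0 collagen genes were called. The share of all genes at that p, in either direction, was 13.9% with all arrays, 14.6% without control 7 and 13.4% without control 9. It was 13.3% without controls 8 and 9, 10.9% without knockout 1, control 7 and control 9, and 11.4% without knockout 3.

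Single chains of the fibrillar and basement membrane classes were compared through their ratio on the same array, in which whatever scales both chains alike cancels. The 6 pairs were chosen after the values of the chains had been seen. The ratios are thus given as a description of these chains, not of their classes, with no test. A positive difference follows from that choice, since the first chain of each pair had the larger log2 fold change. How often the ratios of other gene pairs do not overlap was not examined. Col3a1 and Col1a1 had the highest log2 fold changes of the fibrillar class (0.69 and 0.59). Col5a1 and Col5a2, at 0.18 and 0.15, lay below Col4a1 at 0.33. The log2 ratio of Col3a1 to Col4a1 was 0.81 to 1.12 on knockout arrays and 0.23 to 0.79 on controls, so the groups did not overlap. Its mean was 0.95 in knockouts and 0.59 in controls, a difference of 0.36 with a pooled within-group SD of 0.17. For Col3a1 over Col4a2 the difference was 0.52, with 1.13 to 1.56 against 0.47 to 1.11 and a pooled within-group SD of 0.22. With any 1 array left out, these differences ran from 0.27 to 0.41 and from 0.44 to 0.60. With the endothelial covariate they were 0.42 and 0.60, and without knockout 1, control 7 and control 9 they were 0.38 and 0.51. All these fits reuse the values by which the pairs were chosen, so they add no support.

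For Col1a1 the corresponding ratio to Col4a1 differed by 0.26, with 0.19 to 0.66 in knockouts and 0.08 to 0.38 in controls, and that to Col4a2 by 0.42, with 0.51 to 1.21 against 0.23 to 0.79. Both of these overlapped between the groups. Col6a3 over Col4a1 differed by 0.27, also with overlap. Within the basement membrane class, Col18a1 over Col4a1 differed by 0.17, less than its pooled within-group SD of 0.30. With those 3 arrays left out, the differences for Col1a1 over Col4a1 and over Col4a2 were 0.16 and 0.29, and that for Col18a1 over Col4a1 was 0.01. The class medians of the log2 fold change, 0.01 for fibrillar, 0.17 for basement membrane and 0.01 for other types, stood beside ranges of -0.21 to 0.69, -0.14 to 0.49 and -0.29 to 0.69. Their order turned when genes with a mean log2 below 6 were left out. The medians were then 0.37 over 6 fibrillar, 0.25 over 2 basement membrane and 0.14 over 11 other genes. In the first 2 classes that cut left out genes just below it. They were Col18a1 (mean log2 5.99, log2 fold change 0.49), Col15a1 (5.98, 0.20), Col5a2 (5.99, 0.15) and Col2a1 (5.98, 0.01). The turned order thus rests on where the cut lies.

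**Figure D4:**
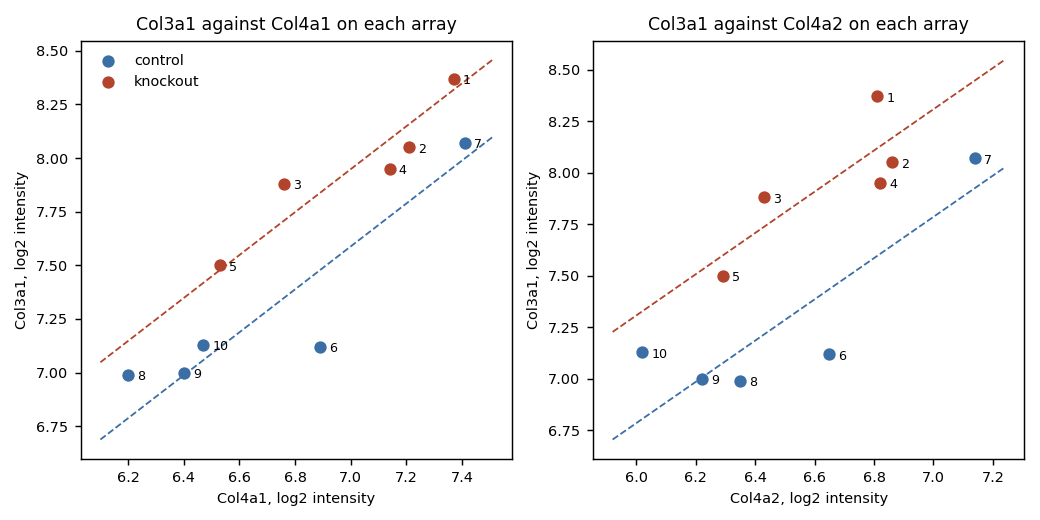
Log2 intensity of Col3a1 against Col4a1 (left) and Col4a2 (right) on each array, numbered, with dashed lines of slope 1 through each group's mean ratio. On both panels every knockout lies above the line of the controls, and the ratios of the groups do not overlap. The pairs were chosen after the values had been seen.

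Upstream sequences of genes from each class are shown so that their letters can be compared. RefSeq promoter windows of the mouse build GRCm38.p6 were matched by symbol for 35 of the 44 genes. The stretches below run 5′ to 3′ on the gene's strand and end just before the first annotated base of the gene, for 4 of the 7 genes higher at an unadjusted p under 0.05 and for Col9a1, lower at that level. They lie at chr6:4505368-4505617 (plus strand) for Col1a2, chr1:45311288-45311537 (plus) for Col3a1, chr1:90844002-90844221 (minus) for Col6a3, chr10:77166531-77166780 (minus) for Col18a1 and chr1:24177360-24177588 (plus) for Col9a1. Capitals mark matches on either strand to the CCAAT box (CCAAT), the TATA box (TATAAA), the GC box (GGGCGG) and the AP-1 site (TGANTCA), none of which overlap here.
Col1a2: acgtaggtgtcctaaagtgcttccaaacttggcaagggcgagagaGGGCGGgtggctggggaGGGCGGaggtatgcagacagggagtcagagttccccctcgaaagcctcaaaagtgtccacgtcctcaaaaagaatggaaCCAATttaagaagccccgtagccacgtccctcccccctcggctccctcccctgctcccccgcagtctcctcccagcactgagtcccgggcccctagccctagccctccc
Col3a1: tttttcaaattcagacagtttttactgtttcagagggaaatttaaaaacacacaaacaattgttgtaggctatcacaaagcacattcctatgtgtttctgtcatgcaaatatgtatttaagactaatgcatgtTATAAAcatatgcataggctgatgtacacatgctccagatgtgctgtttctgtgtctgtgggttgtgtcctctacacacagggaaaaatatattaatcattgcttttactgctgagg
Col6a3: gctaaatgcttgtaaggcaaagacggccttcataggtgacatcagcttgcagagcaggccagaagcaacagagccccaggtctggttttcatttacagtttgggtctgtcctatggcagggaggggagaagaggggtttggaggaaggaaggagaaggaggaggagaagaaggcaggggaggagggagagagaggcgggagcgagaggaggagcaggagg
Col18a1: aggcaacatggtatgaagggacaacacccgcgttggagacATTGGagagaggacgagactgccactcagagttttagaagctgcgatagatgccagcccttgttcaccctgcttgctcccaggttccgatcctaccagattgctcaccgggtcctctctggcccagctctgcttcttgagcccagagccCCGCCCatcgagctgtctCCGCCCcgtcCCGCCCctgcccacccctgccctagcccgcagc
Col9a1: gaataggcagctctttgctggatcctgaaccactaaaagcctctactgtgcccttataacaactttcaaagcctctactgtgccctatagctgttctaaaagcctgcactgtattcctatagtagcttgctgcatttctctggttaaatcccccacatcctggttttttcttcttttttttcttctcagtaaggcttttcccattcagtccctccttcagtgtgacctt

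None of the 4 patterns searched was found in all 5 stretches. Col1a2 held 1 CCAAT match and 2 GC box matches, Col18a1 held 1 and 3, Col3a1 held 1 TATA match only, and Col6a3 and Col9a1 held none of the 4. GC content was 62.0% in Col1a2 and in Col18a1, 56.4% in Col6a3, 43.2% in Col9a1 and 35.2% in Col3a1. Col3a1 and Col1a2, both highest on knockout 1 and, among controls, on control 7, thus differed in these features. In the 250 bases before the start, a GC box match was found in 21 of the 35 collagen promoters (60.0%) and in 32.9% of 27025 promoters in all. A CCAAT match was found in 12 (34.3%, against 34.5% of all), a TATA match in 5 (14.3%, against 13.0%) and an AP-1 match in 1 (2.86%, against 6.87%). Median GC content was 60.8% over 8 fibrillar, 62.0% over 7 basement membrane and 58.0% over 20 other collagen promoters, and 52.0% over all. Matches to short letters of this kind occur in many promoters and say nothing of binding.

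The wider collagen pathway was examined in 6 lists, of which 93 of 100 genes were measured, and 0 were called. At an unadjusted limma p under 0.05, 10 were higher and 4 lower, beside 8.29% and 5.56% of all genes, so these counts lie near the background. Enzymes and chaperones that modify and fold the chains gave 0 of 17 in either direction, with a median log2 fold change of -0.12. Serpinh1, P4ha1 and the other members ranged from -0.31 to 0.44, with the proline isomerase Ppib at 0.23 (SE 0.10) the smallest p among them. Of 16 genes for export, propeptide cleavage and cross-linking, 1 was lower. That was Bmp1, the protease that removes the C-terminal propeptide of fibrillar collagens, at 7.46 ± 0.65 on knockout and 8.22 ± 0.34 on control arrays (SD, n = 5 per group), a difference of -0.76 (limma adjusted p = 0.253, SE 0.28).

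Among 14 fibre-associated proteoglycans and glycoproteins 3 were higher at that level, against a list median of -0.21. Bgn, the small proteoglycan biglycan, was at 10.47 ± 0.41 on knockout and 9.32 ± 0.72 on control arrays (SD, n = 5 per group), a difference of 1.14 (limma adjusted p = 0.160, SE 0.31). Sparc, a collagen-binding glycoprotein of the matrix, was at 0.70 (SE 0.30) and Fbln2 at 0.21 (SE 0.09). Of 9 measured collagen receptors, the integrin chains Itga2 (0.53, SE 0.17) and Itga11 (0.25, SE 0.10) were higher and the receptor kinase Ddr1 (-0.22, SE 0.09) lower. The groups did not overlap for 1 of the 9 receptors, Itga11, with 5.33 to 5.71 in knockouts and 5.10 to 5.31 in controls, where 2.6% of all genes did not overlap.

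Genes of collagen breakdown were represented by 20 proteases and inhibitors, of which 4 were higher and 0 lower. Mmp2, the gelatinase of mesenchymal cells, was at 7.79 ± 0.29 on knockout and 7.04 ± 0.40 on control arrays (SD, n = 5 per group), a difference of 0.75 (limma adjusted p = 0.147, SE 0.19). Mmp10 was at 0.82 (SE 0.26), Mmp9 at 0.63 (SE 0.27) and Mmp19 at 0.25 (SE 0.11), while the list median was 0.03. Of 17 measured TGF-beta genes, which belong to the best known inducer of fibrillar collagen, the receptor Tgfbr2 was higher at 0.45 (SE 0.12, limma adjusted p = 0.158), with groups that did not overlap, as for 2.6% of all genes. Skil and Smad7 were lower at -0.54 (SE 0.16) and -0.42 (SE 0.15). The list, which holds ligands, receptors and induced genes, had 6 positive and 11 negative values and a median of -0.09. Whether the pathway was more or less active was not tested.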

How the data were processed

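Gene expression was measured on Affymetrix arrays (WT Plus labelling), 5 per group, from 400 ng of total RNA each. The authors deposited probe set intensities on the linear scale (1.88 to 15500.2), and the submitters' processing notes name RMA and Affymetrix Expression Console (version 1.4.1.46) for them. The genome build behind the probe sets is not given in the sources used here. Log2 was taken first, and those values lie on steps of 0.01 (100% within 0.001), so each carries a rounding of that size.

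Of 34472 probe sets, 23521 had 1 gene symbol, 1814 several and 9137 none, per the platform annotation. Each gene was represented by its brightest probe set on average, which left 22180 genes, with no filter on dim genes. All 44 collagen symbols matched RefSeq by gene ID. Of the 47 collagen probe sets, Col1a2, Col5a1 and Col6a1 had 2 each, and 1 more that names several genes was left out. Of 189 entries in the pathway and marker lists 179 were measured.

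Groups came from the titles and genotypes. The test was two-sided, by lmFit and eBayes of limma (version 3.58.1, R 4.3.3), with Benjamini-Hochberg adjustment over all genes and calls at an adjusted p under 0.05. Nothing in the labels ties each sample to its own mouse, so a p-value here covers only the variation among these samples, which may be technical. Precision is limited by having 5 arrays per group. The labels name no batch or date.

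The collagen genes, their classes and the gene lists were chosen with earlier results of these data known. Named in full were collagen genes at an unadjusted p under 0.05 and 20 fixed by role, with up to 4 genes of smallest p in each pathway list. The scripts were tested on simulated data, in a check that required recovery only of changes larger than any collagen change given here. Other scalings, filters, probe set rules, variance models, covariates and sets of arrays were tried.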

Additional observations from a re-analysis of the deposited data

Results flagged for a closer look

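Within the groups of 5 arrays, single arrays stood apart from the others in 10 of the 88 groups of collagen values and in 14 of 160 groups examined in all, by Dixon's ratio above its critical value, which chance alone gives in about 1 in 20 groups. Control 7 stood above the other controls for Col1a2 (7.68, others 6.53 to 6.80), Col3a1 (8.07, others 6.99 to 7.13), Col5a2 (6.47, others 5.74 to 5.83), Col12a1 (6.74, others 5.42 to 5.79) and the TGF-beta binding gene Ltbp1 (7.46, others 6.18 to 6.47). Control 8 stood below for Col4a3 (5.34, others 5.77 to 5.86) and Col22a1 (5.18, others 5.54 to 5.66), and control 9 for Col15a1 (5.26, others 5.95 to 6.10). Knockout 2 stood above the other knockouts for Col16a1 (5.77, others 5.53 to 5.59), Col20a1 (6.26, others 5.96 to 6.04) and Col25a1 (6.40, others 5.97 to 6.08). Control 6 was low for the integrin gene Itga2 (8.00, others 8.56 to 8.73) and control 10 for Itga11 (5.10, others 5.25 to 5.31). The mean of the smooth muscle markers was 7.95 on knockout 1, against 6.61 to 6.89 on the other knockouts.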

How the results depend on the processing

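In all 23 alternative fits 0 collagen genes were called, and the smallest adjusted p was 0.0586, for Col6a5 with the Paneth cell mean as a covariate. The number higher at an unadjusted p under 0.05, 7 with all arrays, was 5 to 12 with 1 array left out, 0 with the blood endothelium covariate and 2 without controls 8 and 9. The number lower, 2 with all arrays, was 1 to 3 with 1 array left out. It was 0 with genes at a mean log2 of at least 6 only, a filter that left out both Col9a1 (mean log2 5.38) and Col11a2 (5.34). It was 4 with the endothelium covariate, 1 without knockout 1, control 7 and control 9, and 4 without controls 8 and 9. The share of all genes at that p, in either direction, was 13.9% with all arrays and 9.95% to 15.9% with 1 array left out. It was 20.4% among genes at a mean log2 of at least 6. At a mean log2 of at least 6 fewer genes are tested, and the median log2 fold change was 0.18 over collagens, 0.37 over fibrillar and 0.14 over other types. The basement membrane median was -0.13 with the endothelium covariate. The cause was not tested in the other cases. Of the 23 named genes 14 kept their sign in every alternative. No paired analysis was possible because the groups share no replicate numbers. The arrays give no detection values, so dim genes could not be told from background.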
